A study of Mus musculus with 6 samples.

Results

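D-type cyclins, their kinase partner Cdk4, the Cip/Kip inhibitors, the retinoblastoma protein gene Rb1, and the p53 gene Trp53 with its target Ccng1 make up a set of 10 listed genes. They were taken by symbol from the authors' table of 12072 genes labelled as expressed, and all 10 were present. RNA came from the left ventricle of 30-week-old mice fed normal chow. The 6 fl/fl animals carried a floxed Mpc2 gene, which encodes a subunit of the mitochondrial pyruvate carrier. The other 6 animals were labelled CS-Mpc2-/-, a genotype lacking Mpc2; the Cre driver is not given in the sources used here. RNA of 2 hearts was pooled per library, which gave 3 libraries per genotype from separate animals.

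In the cell cycle, D-type cyclins bind Cdk4 or its relative Cdk6, and the complex phosphorylates the retinoblastoma protein, which then releases E2F transcription factors. Cip/Kip inhibitors, encoded by Cdkn1a, Cdkn1b and Cdkn1c, bind cyclin-CDK complexes and restrain them, and p53 is a well-known activator of Cdkn1a. Adult cardiomyocytes have mostly left the cell cycle, whereas D-type cyclins have been tied to both cell division and hypertrophic growth in the heart.

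Coverage is given as parts per 1000000 of all coverage in a library (ppm). The depth of the libraries, in 1000000 of the smallest step of each, was 92.9 to 389, with fl/fl replicates 1 and 2 the shallowest. For every member the coverage was at least 1255 such steps in each library. Of the 6 libraries, 2 stood apart from their groups. Along the first principal component (54.6% of variance) fl/fl replicate 3 lay at 14.8, near the CS-Mpc2-/- libraries (18.1 to 30.8) and far from fl/fl replicates 1 and 2 (-47.8 and -42.3). Coverage of the deleted gene, Mpc2, was 45.2, 38.9 and 27.7 ppm in the fl/fl libraries and 14.9 and 18.2 ppm in CS-Mpc2-/- replicates 1 and 2. It reached 46.3 ppm, above every fl/fl library, in the library labelled CS-Mpc2-/- replicate 3, so its Mpc2 level goes against its label. With all 6 libraries Mpc2 itself did not pass the test between genotypes (log2 difference -0.63 ± 0.35 (SE); limma adjusted p = 0.453). Whether the labels of the 2 libraries that stand apart are crossed cannot be told from these files. The labels were kept, and an exchange would change the mean of both groups for every gene below. Each member's log2 difference is given with all 6 libraries and without these libraries. The 2 libraries were set apart by these same data, 1 of them by its profile over all genes. P-values from fits without them are therefore a description and not a test, for members and listed genes alike. All 12 cardiomyocyte markers were in the table, with a summed coverage of 157875 to 209718 ppm in fl/fl and 154766 to 161834 ppm in CS-Mpc2-/-.

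The p53 element upstream of Cdkn1a is shown because Cdkn1a varied more between libraries than any other member. Promoter windows from 250 bases before to 50 bases after an annotated start came from RefSeq (GRCm38.p6, the mm10 assembly) and were found for 6 of the 10 members, in 8 windows. Both Cdkn1a windows lie on the plus strand, with starts 2790 bases apart. In the first, capitals mark the letters CATG in 2 copies with 6 bases between them, the core of a textbook p53 element, at positions -48 to -35 from the upstream start. This spelling, which reads the same on both strands, was in 0.712% of all 32851 windows and in 1 of the 8 member windows. The Ccng1 window is on the minus strand, and capitals there mark the CCAAT box on either strand, found 4 times. A CCAAT box was in 37.4% of all windows and in 4 of the 8 member windows, those of Ccnd3, Ccng1, Cdkn1b and Trp53.
Cdkn1a upstream start, chr17:29090729-29091028: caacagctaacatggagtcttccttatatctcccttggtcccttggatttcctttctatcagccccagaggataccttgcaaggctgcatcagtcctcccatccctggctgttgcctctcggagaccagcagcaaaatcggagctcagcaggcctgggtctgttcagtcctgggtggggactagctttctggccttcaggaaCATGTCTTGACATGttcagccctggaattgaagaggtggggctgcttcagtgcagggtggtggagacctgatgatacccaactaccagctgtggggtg
Cdkn1a downstream start, chr17:29093519-29093818: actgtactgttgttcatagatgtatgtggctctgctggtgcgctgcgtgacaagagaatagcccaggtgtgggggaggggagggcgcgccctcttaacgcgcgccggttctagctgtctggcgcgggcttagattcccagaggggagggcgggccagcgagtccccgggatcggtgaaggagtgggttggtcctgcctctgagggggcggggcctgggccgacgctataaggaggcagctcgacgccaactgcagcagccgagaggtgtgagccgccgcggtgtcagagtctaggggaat
Ccng1, chr11:40755237-40755536: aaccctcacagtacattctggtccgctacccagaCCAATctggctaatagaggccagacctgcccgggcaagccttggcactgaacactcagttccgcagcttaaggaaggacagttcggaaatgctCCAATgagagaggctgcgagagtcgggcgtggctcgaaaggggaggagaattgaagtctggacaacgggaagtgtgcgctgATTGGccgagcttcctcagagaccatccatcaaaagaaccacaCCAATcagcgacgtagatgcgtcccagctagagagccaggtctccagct

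Per kb of transcript, Ccng1 had by far the highest level of the 10 genes and Rb1 the lowest. Ccng1 encodes an atypical cyclin that p53 induces, and its level was 204 ± 35.8 ppm per kb (SD over the 6 libraries). Its range of 163 to 268 ppm per kb did not overlap that of Ccnd1, the next gene, and in each library Ccng1 was 3.30 to 6.53 times Ccnd1. The D-type cyclins followed, with 44.7 ± 7.32 ppm per kb for Ccnd1, 34.0 ± 2.24 for Ccnd2 and 25.4 ± 3.73 for Ccnd3 (SD over 6 libraries). Ccnd1 was above Ccnd2 in 6 of 6 libraries, by 1.09 to 1.58 times. Cdkn1a, at 29.8 ± 15.3 ppm per kb, lay between Ccnd2 and Ccnd3 on average, but it was above Ccnd3 in 3 of 6 libraries and below it in the others.

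Ccnd3 was above Cdk4 in every library, without overlap of their ranges, and Cdk4 (13.8 ± 2.48 ppm per kb) could not be separated from Cdkn1c (13.1 ± 3.88). Cdkn1b and Trp53 came next, at 7.95 ± 1.15 and 7.62 ± 1.47 ppm per kb, each above the other in 3 of 6 libraries. Rb1 was at 4.07 ± 0.872 ppm per kb and below Trp53 in 6 of 6 libraries, although their ranges over libraries overlapped. GENCODE M21 places exons of another gene over exons of 7 of the 10 members, on the opposite strand. The authors' strand setting is not stated, so reads of such pairs cannot be told apart. Cdk4 is the clearest case, since its neighbour Tspan31 was covered at 39.5 ± 6.56 and 47.4 ± 0.649 ppm (SD, n = 3 each), above Cdk4 itself.

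**Figure D1:**
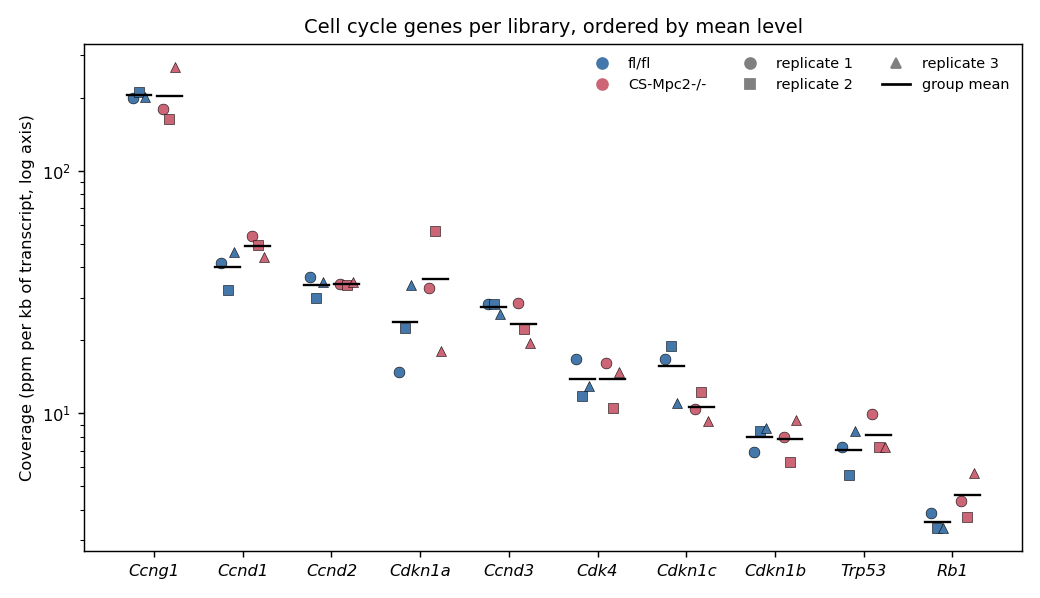
Coverage of the 10 genes per kb of transcript (log axis) in each library, in order of the mean over 6 libraries; colour marks genotype, symbol marks replicate and the line is the group mean. Ccng1 stands alone at the top (163 to 268 ppm per kb), and Cdkn1a has the widest spread (14.8 to 56.7).

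With all 6 libraries, 0 of the 10 genes differed between genotypes at an adjusted p under 0.05 (limma, Benjamini-Hochberg over all genes), where 0% of all 12072 genes did. At an unadjusted p under 0.05 there were also 0 of 10 members, beside 13.5% of all genes. The median log2 difference was 0.012 over the members, with 5 above and 5 below 0, and 0.041 over all genes. For 0 of the 10 genes did the 3 CS-Mpc2-/- values lie wholly above or wholly below the 3 fl/fl values, beside 14.5% of all genes. With fl/fl replicate 1, 2 or 3 left out this count was 1, 1 and 2 of 10, beside 19.8%, 18.9% and 43.3% of all genes. With CS-Mpc2-/- replicate 1, 2 or 3 left out it was 1, 2 and 2, beside 22.2%, 24.9% and 30.2%, and without replicate 3 of both groups it was 4, beside 55.1%. Leaving out fl/fl replicate 3 gave 0 members past the adjusted threshold beside 10.9% of all genes. Without the library labelled CS-Mpc2-/- replicate 3 there were 0 members beside 0% of all genes. Without replicate 3 of both groups 1 member, Cdkn1a, was higher beside 12.5% of all genes in either direction.

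Ccnd1, the cyclin D1 gene, had the largest positive difference of the D-type cyclins. It had 156, 121 and 173 ppm in the fl/fl replicates 1, 2 and 3, in that order here and below, and 201, 185 and 165 ppm in CS-Mpc2-/-. Thus 2 CS-Mpc2-/- libraries were above all fl/fl libraries, and the library labelled CS-Mpc2-/- replicate 3 was below fl/fl replicate 3. The means were 150.3 ± 26.6 and 184 ± 18.2 ppm (SD, n = 3 each). The log2 difference was 0.30 ± 0.18 (SE), with a 95% interval of -0.09 to 0.69 and a limma adjusted p of 0.484. Without fl/fl replicate 3 it was 0.41 ± 0.18 (limma adjusted p = 0.162), without the library labelled CS-Mpc2-/- replicate 3 it was 0.37 ± 0.19 (0.452), and without both 0.48 ± 0.17 (0.0801). Over 19 alternatives the difference stayed positive, between 0.15 and 0.48. Several of these alternatives, for each gene, change only the spread estimate or the genes kept and could not turn a sign.

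Ccnd2, the cyclin D2 gene, was the steadiest member, at 231, 189 and 221 ppm in fl/fl and 216, 215 and 219 ppm in CS-Mpc2-/-. The CS-Mpc2-/- values all lay within the fl/fl range. Its log2 difference was 0.026 ± 0.16 (SE), with an interval of -0.31 to 0.37, and its sign turned under each of the 3 other scalings (-0.011 to -0.016). It was 0.051 without fl/fl replicate 3, 0.017 without the library labelled CS-Mpc2-/- replicate 3 and 0.042 without both. Ccnd3, the cyclin D3 gene, had 59.7, 59.7 and 54.1 ppm in fl/fl and 60.2, 47.3 and 41.3 ppm in CS-Mpc2-/-. Its CS-Mpc2-/- replicate 1 was just above every fl/fl library and the other 2 CS-Mpc2-/- libraries were below every fl/fl library. The difference was -0.23 ± 0.19 (SE; interval -0.65 to 0.18; limma adjusted p = 0.603), and it stayed negative over the 19 alternatives (-0.38 to -0.11). It was -0.28 without fl/fl replicate 3, -0.11 without the library labelled CS-Mpc2-/- replicate 3 and -0.16 without both.

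As shares of the summed D-type cyclin coverage per kb, a measure within each library that does not depend on the library scaling, Ccnd1 held more in each of the 3 CS-Mpc2-/- pools than in the fl/fl pools. Its share was 39.2%, 35.8% and 43.4% in fl/fl and 46.3%, 46.7% and 44.9% in CS-Mpc2-/-. The means were 39.5% ± 3.80 and 46.0% ± 0.945 (SD, n = 3 each), and a two-sided exact permutation test gave p = 0.1, the smallest that 3 against 3 allows. Fl/fl replicate 3 was the nearest to the CS-Mpc2-/- libraries. The difference of the means, 6.48 percentage points, was 8.44 without fl/fl replicate 3, 7.01 without the library labelled CS-Mpc2-/- replicate 3 and 8.97 without both. The Ccnd3 share was 27.2% ± 3.69 and 21.8% ± 2.37 (exact permutation p = 0.2, n = 3 each), with fl/fl replicate 3 below CS-Mpc2-/- replicate 1. The Ccnd2 share was 33.3% ± 0.877 and 32.2% ± 2.98 (exact permutation p = 0.7, n = 3 each). The sum of the 3 cyclins was 101 ± 9.36 ppm per kb in fl/fl and 107 ± 9.09 in CS-Mpc2-/-, a difference smaller than the spread within either group.

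Cdk4, the kinase that D-type cyclins activate, had 34.4, 24.1 and 26.6 ppm in fl/fl and 33.2, 21.7 and 30.5 ppm in CS-Mpc2-/-. The groups overlapped almost fully. The log2 difference was -0.0024 ± 0.23 (SE), with an interval of -0.50 to 0.49, so differences within that interval remain compatible with these libraries. It was -0.039 without fl/fl replicate 3, -0.062 without the library labelled CS-Mpc2-/- replicate 3 and -0.099 without both, and its sign turned under 3 of the 19 alternatives.

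Cdkn1a, which encodes the inhibitor p21, spanned 3.83-fold between its lowest and highest library, the widest range of the 10 genes. It had 30.8, 46.8 and 70.5 ppm in fl/fl and 68.3, 118 and 37.8 ppm in CS-Mpc2-/-. The highest value was in CS-Mpc2-/- replicate 2 and the lowest in fl/fl replicate 1. Fl/fl replicate 3 lay among the CS-Mpc2-/- values, and the library labelled CS-Mpc2-/- replicate 3 lay among the fl/fl values. The means were 49.4 ± 20.0 and 74.7 ± 40.5 ppm (SD, n = 3 each), with a log2 difference of 0.52 ± 0.37 (SE; interval -0.28 to 1.32; limma adjusted p = 0.556).

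Whether Cdkn1a passed the test depended on the 2 libraries that stand apart. Without fl/fl replicate 3 the log2 difference was 0.81 ± 0.35 (limma adjusted p = 0.156), and it was 0.93 ± 0.34 (0.304) on dropping the library labelled CS-Mpc2-/- replicate 3. Without both, the log2 difference of Cdkn1a was 1.22 ± 0.26 (limma adjusted p = 0.00807, and 0.00807 to 0.920 over the 19 alternatives). That comparison has 2 libraries per group, and leaving out CS-Mpc2-/- replicate 2 alone brought the difference down to 0.12. The libraries left out were set apart by these same data, so the p-values without them are a description.

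Fibroblast markers differed between the same libraries. All 12 were in the table, and their summed coverage was 2415 to 3022 ppm in fl/fl, highest in replicate 3, and 3135 to 6453 ppm in CS-Mpc2-/-, lowest in replicate 3. The sum leans on collagen genes, since Col3a1 alone was 2795 ppm in CS-Mpc2-/- replicate 1 and 275 to 425 ppm in fl/fl. Of the 12 markers, 6 were higher and 0 lower without overlap, beside 8.01% and 6.48% of all genes. Macrophage and leukocyte markers summed to 333 to 455 ppm and 458 to 650.5 ppm, with 11 of 15 in the table. Of these 11, 4 were higher and 0 lower without overlap, beside the same shares of all genes. The other genes of that list, Cd68, Adgre1, Cd3e and Cd79a, were not analysed here. Endothelial markers (12 of 12) summed to 1727 to 1954 and 1696 to 2098 ppm, and smooth muscle and pericyte markers (10 of 10) to 2609 to 2846 and 2338 to 3185 ppm. Without overlap 1 endothelial marker was higher and 0 lower, and 1 smooth muscle and pericyte marker was higher and 1 lower, beside the same shares. CS-Mpc2-/- replicate 2, with the highest Cdkn1a, was not the library with the highest fibroblast sum, which was replicate 1. The part of these cell types in the values of Cdkn1a and Ccnd1 was not tested, and in whole-tissue RNA a change in cell number and a change in RNA per cell cannot be told apart.

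Cdkn1b, which encodes p27, had 31.4, 38.5 and 39.6 ppm in fl/fl and 36.2, 28.7 and 42.7 ppm in CS-Mpc2-/-. Its 2 extreme values were both in CS-Mpc2-/- libraries. The log2 difference was -0.035 ± 0.21 (SE; interval -0.49 to 0.41), and its sign turned under 3 of the 19 alternatives. One of these was the fit without fl/fl replicate 3 (0.025), whereas it was -0.17 without the library labelled CS-Mpc2-/- replicate 3 and -0.11 without both.

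Cdkn1c, which encodes p57 and is an imprinted gene expressed from the maternal allele, had the largest negative difference and the smallest p of the 10. It had 32.0, 36.1 and 21.0 ppm in fl/fl and 19.8, 23.4 and 17.6 ppm in CS-Mpc2-/-. Fl/fl replicates 1 and 2 were above every CS-Mpc2-/- library, and fl/fl replicate 3 was below CS-Mpc2-/- replicate 2. The means were 29.7 ± 7.80 and 20.3 ± 2.90 ppm (SD, n = 3 each). The difference was -0.50 ± 0.24 in log2 units (SE; interval -1.03 to 0.02; limma adjusted p = 0.384). Without fl/fl replicate 3 it was -0.73 ± 0.23 (limma adjusted p = 0.0584), without the library labelled CS-Mpc2-/- replicate 3 it was -0.41 ± 0.27 (0.550), and without both -0.64 ± 0.23 (0.0942). Over the 19 alternatives it stayed negative (-0.73 to -0.35). Kcnq1, a potassium channel gene of the same imprinted domain, was lower without overlap, at 34.9, 37.8 and 24.1 ppm against 19.5, 19.7 and 20.4 ppm (log2 difference -0.65 ± 0.22; limma adjusted p = 0.269). It fell in the test over all genes without fl/fl replicate 3 and without both (limma adjusted p under 0.05).

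Within the Cip/Kip family the makeup varied widely between libraries of the same genotype. Cdkn1a held 38.4%, 45.0% and 63.2% of the summed coverage per kb in fl/fl and 64.1%, 75.3% and 49.3% in CS-Mpc2-/-. Cdkn1c held 43.7%, 38.0% and 20.6% in fl/fl and 20.3%, 16.3% and 25.2% in CS-Mpc2-/-. In fl/fl replicate 1 Cdkn1c was thus the leading inhibitor, and in the other 5 libraries Cdkn1a was. The genotype difference had an exact permutation p of 0.2 for each of these 2 shares (n = 3 each, two-sided). The mean Cdkn1a share was 48.9% and 62.9% with all libraries, and the difference was 21.2 percentage points without fl/fl replicate 3, 20.9 without the library labelled CS-Mpc2-/- replicate 3 and 28.0 without both. The ratio of summed Cip/Kip to summed D-type cyclin coverage per kb was 0.472 ± 0.0989 in fl/fl and 0.509 ± 0.180 in CS-Mpc2-/- (SD, n = 3 each), so D-type cyclin coverage exceeded inhibitor coverage in every library.

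**Figure D2:**
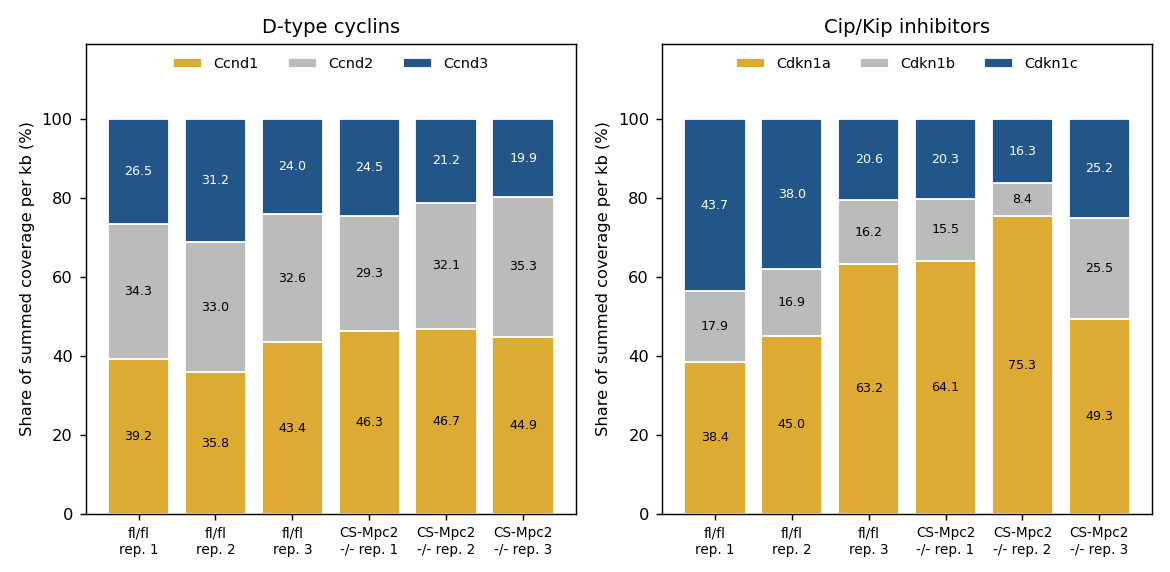
Makeup of the D-type cyclins (left) and of the Cip/Kip inhibitors (right) in each library, as percent of the family's summed coverage per kb. The Ccnd1 share is 35.8% to 43.4% in fl/fl and 44.9% to 46.7% in CS-Mpc2-/-, and Cdkn1c leads its family in fl/fl replicate 1 alone.

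Rb1, the pocket protein that D-type cyclin kinases phosphorylate, had 18.1, 15.7 and 15.7 ppm in fl/fl and 20.4, 17.4 and 26.5 ppm in CS-Mpc2-/-. The highest value was in the library labelled CS-Mpc2-/- replicate 3, whereas CS-Mpc2-/- replicate 2 was below fl/fl replicate 1. The log2 difference was 0.34 ± 0.23 (SE; interval -0.16 to 0.83; limma adjusted p = 0.531). Without that library it was 0.18 ± 0.24, without fl/fl replicate 3 it was 0.30 ± 0.26, and without both 0.15 ± 0.27. Lpar6, whose exons overlap Rb1 on the other strand, was covered at 12.5 ± 5.27 and 7.86 ± 3.87 ppm (SD, n = 3 each).

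Trp53, the p53 gene, had 13.5, 10.4 and 15.7 ppm in fl/fl and 18.6, 13.5 and 13.6 ppm in CS-Mpc2-/-. Only CS-Mpc2-/- replicate 1 was above all fl/fl libraries. Its log2 difference was 0.20 ± 0.25 (SE; interval -0.35 to 0.74; limma adjusted p = 0.757). It was 0.32 without fl/fl replicate 3, 0.27 without the library labelled CS-Mpc2-/- replicate 3 and 0.39 without both, and it stayed positive over the 19 alternatives (0.045 to 0.39). Ccng1 was even across fl/fl, at 703, 743 and 710.1 ppm, and uneven across CS-Mpc2-/-, at 632, 572 and 941 ppm. The outlying value was that of the library labelled CS-Mpc2-/- replicate 3, above every fl/fl library, while the other 2 were below every fl/fl library. The means of 719 ± 21.7 and 715 ± 198 ppm (SD, n = 3 each) hide this split. The log2 difference was -0.041 ± 0.20 (SE; interval -0.48 to 0.39), and without that library it was -0.26 ± 0.16 (limma adjusted p = 0.540). It was -0.049 ± 0.20 without fl/fl replicate 3 and -0.26 ± 0.14 without both.

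The 2 p53 targets among the members ran opposite to each other within CS-Mpc2-/-. Replicate 2 had the highest Cdkn1a and the lowest Ccng1 of all 6 libraries, whereas in the library labelled CS-Mpc2-/- replicate 3 Cdkn1a was lowest of its group and Ccng1 highest of all. Per kb, Ccng1 was 2.87 times Cdkn1a in the former and 14.8 times in the latter, and 5.96 to 13.5 times in fl/fl.

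**Figure D3:**
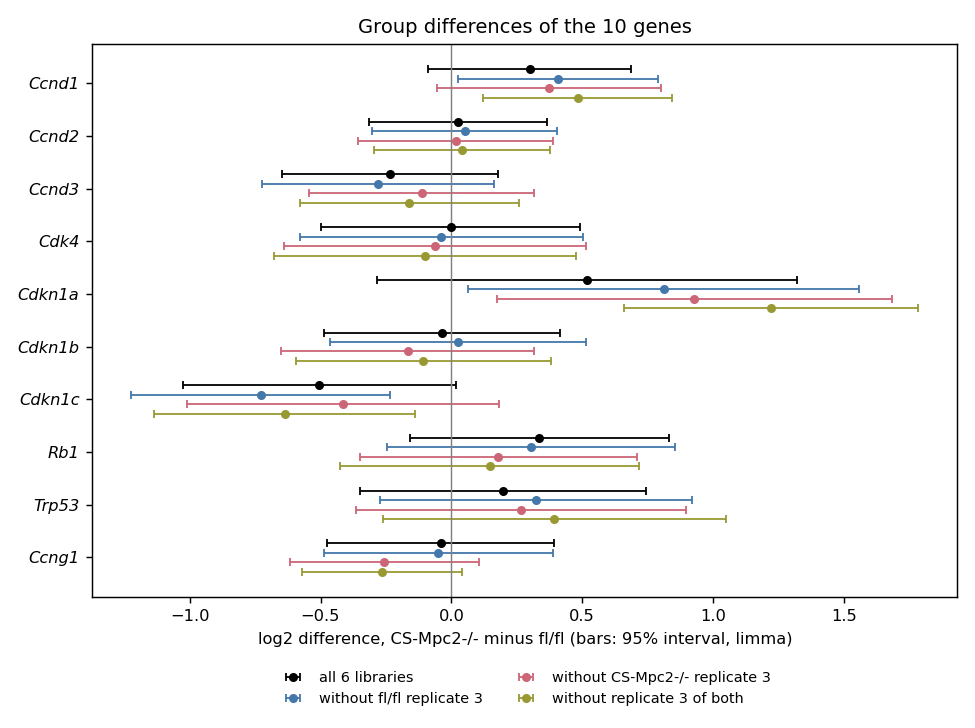
Log2 difference between genotypes for each gene (limma, points) with 95% intervals (bars, not adjusted for the number of genes), for all 6 libraries and with replicate 3 of either or both groups left out. With all 6 libraries each interval includes 0; Cdkn1a moves from 0.52 to 1.22 when both replicates 3 are left out.

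The genes whose profile over the 6 libraries was most like that of Cdkn1a, among 8393 searched, were Xirp1, Lmo2 and Arhgef37. The root mean square distances between their centred log2 profiles and that of Cdkn1a were 0.23, 0.26 and 0.26. Xirp1, which binds actin at intercalated discs, had 285, 351 and 567 ppm in fl/fl and 606, 755 and 403 ppm in CS-Mpc2-/-. It thus had the same order of libraries as Cdkn1a except that fl/fl replicate 3 lay below CS-Mpc2-/- replicate 1, and fl/fl replicate 2 below the library labelled CS-Mpc2-/- replicate 3. No other member spanned 1 on the log2 scale, the range set for this search; Cdkn1c came closest, at 0.99.

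Of 279 measured genes on 16 lists around this pathway and its cell types, 0 passed the test over all genes (limma, all 6 libraries), and 47 (16.8%) had an unadjusted p under 0.05. For every gene of the authors' table the larger of the 2 group means was at least 700 in the deposited unit. A gene below that floor in 1 group is in the table only through the other group. Its direction is then partly fixed by the floor, and its count without overlap is a description. Other p53 targets were present for 32 of 35 genes. Their median log2 difference was 0.09, beside 0.041 over all genes, and 3 were higher and 0 lower without overlap, where 8.01% and 6.48% of all genes were. Btg2, an antiproliferative gene, had 53.2, 52.0 and 74.3 ppm in fl/fl and 167, 123 and 97.8 ppm in CS-Mpc2-/-, a log2 difference of 1.08 ± 0.22 (SE; limma adjusted p = 0.220). Phlda3, an inhibitor of Akt signalling, was at 11.7, 11.6 and 35.7 ppm against 66.5, 56.2 and 34.0 ppm. Like Cdkn1a, Phlda3 had its highest fl/fl value and its lowest CS-Mpc2-/- value in replicate 3. Without fl/fl replicate 3, Gdf15, Phlda3, Btg2 and Plk2 rose and Gadd45a fell among these 32 genes (limma adjusted p under 0.05). These 5 genes are 15.6% of the list, beside 10.9% of all genes in that fit. Gdf15 was at 0.00494 ppm in fl/fl replicate 2, the smallest step of that library. Its fl/fl mean was below the floor, so it is in the table only through CS-Mpc2-/-. Genes that regulate p53 were present for 20 of 21, with a median of -0.21. Without overlap 0 were higher and 5 lower, beside the same 8.01% and 6.48% of all genes. The acetyltransferase genes Crebbp and Ep300 had differences of -0.47 ± 0.19 and -0.33 ± 0.18 (SE), and the checkpoint kinase gene Chek2 -0.75 ± 0.38. The CS-Mpc2-/- mean of Chek2 was below the floor, so it is in the table only through fl/fl. The others of the 5, named after their values were seen, were Trp53bp1 and Trp53bp2.

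**Figure D4:**
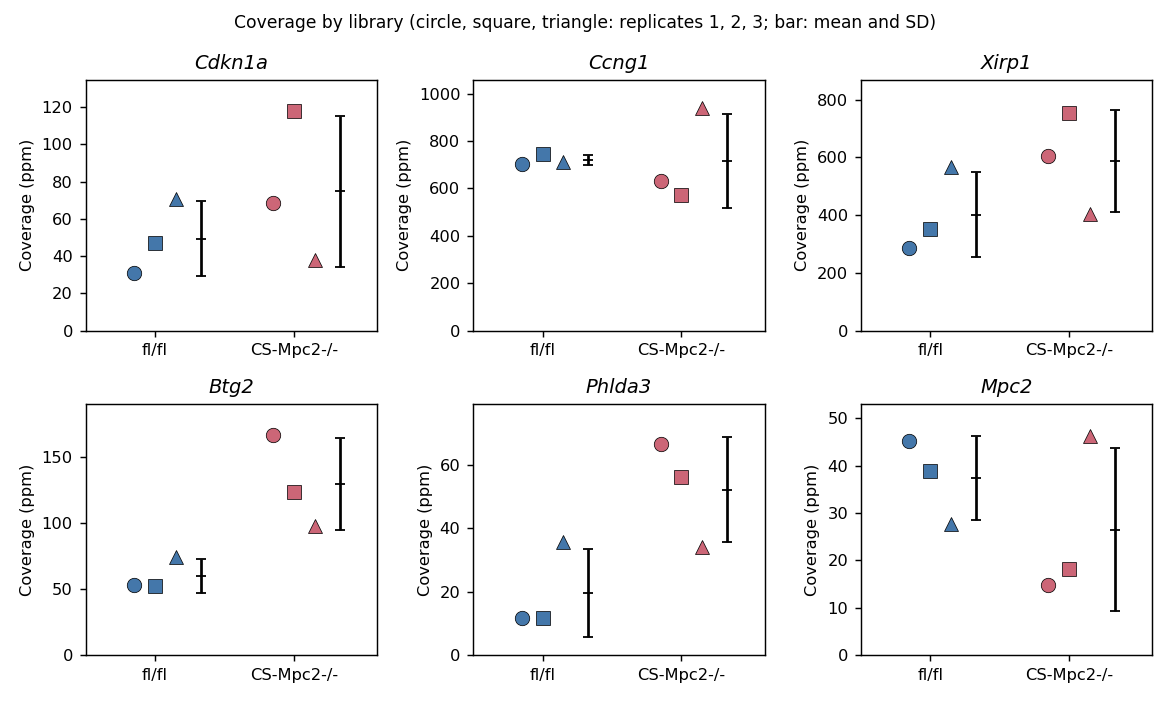
Coverage (ppm) of Cdkn1a, Ccng1, Xirp1, Btg2, Phlda3 and Mpc2 in each library, with the mean and SD of each group beside the points. Cdkn1a, Xirp1 and Phlda3 are high in fl/fl replicate 3 and low in CS-Mpc2-/- replicate 3 for their groups, and Ccng1 and Mpc2 are highest in the library labelled CS-Mpc2-/- replicate 3.

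Other cyclins were present for 15 of 25 genes, and Ccnb1, Ccnb2, Ccne1 and Ccne2, the cyclins of mitosis and of S phase entry, were among those not analysed here. With all 6 libraries 0 passed the test (limma), the median log2 difference was -0.15, and 0 were higher and 1 lower without overlap. For this list and those below, 8.01% of all genes were higher and 6.48% lower without overlap. Ccna2, the S phase and mitotic cyclin A2, had 1.77, 2.19 and 1.20 ppm in fl/fl and 3.91, 1.43 and 4.12 ppm in CS-Mpc2-/-, with CS-Mpc2-/- replicate 2 inside the fl/fl range. Other cyclin-dependent kinases were present for 20 of 21 genes, with a median of -0.07, 2 higher and 1 lower without overlap. Cdk14, a membrane-tethered kinase partner of cyclin Y, was at 10.2, 16.2 and 18.9 ppm against 21.5, 20.8 and 28.7 ppm (log2 difference 0.64 ± 0.26; limma adjusted p = 0.322). INK4 inhibitors and CDK accessory proteins were present for 13 of 20, with a median of 0.13 and 1 higher and 0 lower without overlap. That 1 was Cdc25a, a phosphatase that activates CDKs, at 0.959 to 1.51 ppm in fl/fl and 2.38 to 3.09 ppm in CS-Mpc2-/-. Levels this low, like those of Ccna2, rest on little coverage, above all in fl/fl replicates 1 and 2, the shallowest libraries. Cdc25a and Ccna2 had fl/fl means below the floor given above and are in the table only through CS-Mpc2-/-. That Cdc25a was higher is thus a description and no support for a rise. Wee1, a kinase that restrains Cdk1, was at 10.8, 13.5 and 6.96 ppm against 4.53, 4.63 and 8.11 ppm.

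Pocket proteins, E2F factors and DREAM subunits, the partners and relatives of Rb1, were present for 17 of 20 genes, with a median log2 difference of -0.0071. Without overlap 2 were higher and 0 lower, beside 8.01% and 6.48% of all genes. The 2 relatives of Rb1 had differences of opposite sign. Rbl1, which encodes p107, had 2.58, 1.20 and 4.12 ppm in fl/fl and 6.58, 4.48 and 7.59 ppm in CS-Mpc2-/- (1.05 ± 0.39). Rbl2, which encodes p130, the pocket protein of quiescent cells, was at 60.5, 67.0 and 51.3 ppm against 39.7, 53.8 and 41.2 ppm (-0.40 ± 0.19). The limma adjusted p was 0.298 and 0.386. Rbl1 rose in the test over all genes without fl/fl replicate 3 and did not pass without replicate 3 of both groups. The fl/fl mean of Rbl1 was below the floor given above, so it is in the table only through CS-Mpc2-/-, and its level rests on little coverage. Its rise and its contrast with Rbl2 are thus a description.

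The machinery that degrades cyclins and inhibitors was present for 21 of 25 genes, with a median of 0.06. Without overlap 1 was higher and 1 lower, beside 8.01% and 6.48% of all genes. Fbxo31, an F-box protein that targets cyclin D1 for degradation, had 75.4, 93.7 and 37.8 ppm in fl/fl and 23.6, 38.1 and 32.9 ppm in CS-Mpc2-/-. Its log2 difference was -1.04 ± 0.30 (SE; limma adjusted p = 0.224), and it fell in the test over all genes without fl/fl replicate 3. Mitogen, Myc and AP-1 inputs to the D-type cyclins were present for 27 of 29, with a median of -0.05 and 3 higher and 9 lower without overlap, beside 8.01% and 6.48% of all genes. The 3 higher were Fos, Junb and Myc, and the 9 lower were Akt2, Foxo3, Foxo4, Mxd1, Mxi1, Smad3, Stat5a, Stat5b and Tcf7l2; those outside the 3 smallest p were named after their values were seen. Junb had 22.3, 20.7 and 24.6 ppm in fl/fl and 85.6, 41.2 and 36.0 ppm in CS-Mpc2-/-. Foxo3, a transcription factor known to activate Cdkn1b, was at 157, 175 and 71.8 ppm against 57.4, 71.7 and 65.0 ppm, while Cdkn1b itself had a difference near 0. Without fl/fl replicate 3, Junb and Fosl2 rose and Stat5a and Foxo3 fell (limma adjusted p under 0.05), 4 of 27 genes (14.8%) beside 10.9% of all genes.

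Imprinted genes and neighbours of Cdkn1c were present for 11 of 15, with a median of -0.22. Beside 8.01% and 6.48% of all genes, 0 were higher and 4 lower without overlap. Besides Kcnq1 these included H19, an imprinted long noncoding RNA, at 19.1, 13.7 and 13.3 ppm in fl/fl and 5.65, 12.7 and 9.04 ppm in CS-Mpc2-/-. Igf2, the growth factor gene next to H19, was at 27.1, 19.7 and 12.6 ppm against 10.5, 7.18 and 16.1 ppm.

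Genes of DNA replication and S phase were present for 33 of 43, with a median of 0.06. Without overlap 3 were higher and 2 lower, beside 8.01% and 6.48% of all genes. With all 6 libraries or without replicate 3 of fl/fl or of both groups, 0 passed the test (limma). Uhrf1, which maintains DNA methylation at replication, had 2.23, 1.36 and 2.73 ppm in fl/fl and 6.83, 5.09 and 4.39 ppm in CS-Mpc2-/-. Genes of mitosis and proliferation were present for 17 of 30, with a median of 0.50, and 4 were higher and 0 lower without overlap, beside the same shares of all genes. Of these 4, Kif11, Cenpe and Foxm1 had fl/fl means below the floor given above and are in the table only through CS-Mpc2-/-. Cenpe and Foxm1 were named after their values were seen. The count of higher genes is thus partly fixed by the floor and is no support for a rise. Kif11, a mitotic kinesin, was at 0.431, 0.534 and 2.52 ppm against 6.17, 3.37 and 3.94 ppm, and Anln, an actin-binding protein of cytokinesis, at 1.86, 4.38 and 3.21 ppm against 12.1, 7.23 and 5.19 ppm. Cenpf, a kinetochore protein, went the other way, at 63.1, 74.2 and 31.1 ppm against 8.87, 5.05 and 38.5 ppm. Levels as low as those of Kif11, Anln and Uhrf1 rest on little coverage, above all in fl/fl replicates 1 and 2, the shallowest libraries. Uhrf1, like Kif11, is in the table only through CS-Mpc2-/-. Of 10 defining markers of proliferating cells, 4 were analysed, and Mki67 had 16.6, 9.58 and 13.3 ppm in fl/fl and 38.4, 12.7 and 20.9 ppm in CS-Mpc2-/-. Its CS-Mpc2-/- replicate 2 value lay within the fl/fl range, although that library had the highest Cdkn1a. The groups also overlapped for Top2a, at 1.93, 6.19 and 1.74 ppm against 10.1, 2.72 and 9.22 ppm. For Cdk1 they overlapped too, at 4.35, 0.282 and 3.33 ppm against 5.70, 2.12 and 1.73 ppm, and for Ccna2 as given above.

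In the authors' deposited table, the ratio of the CS-Mpc2-/- mean to the fl/fl mean was 1.51 for Cdkn1a, with an unadjusted p of 0.387. The authors' deposited table gave the smallest p of the 10 genes to Cdkn1c, at a ratio of 0.682 and an unadjusted p of 0.121.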

How the data were processed

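Total RNA of left ventricle was depleted of ribosomal RNA and sequenced on an Ion Torrent Proton, per the labels' protocols. The deposited value per gene and library is a coverage signal, brought by the authors to almost equal library totals (read from the values). At least 99.9917% of a library's values were whole multiples of its smallest value (tolerance 0.01), in steps that behave as aligned bases, so reads were not recovered and no counting intervals are given. The authors' deposited table also holds the ratio of group means and an unadjusted p-value. The submitters' processing notes name mm10 as the build. Which aligner, annotation and strand setting were used is not given in the sources used here.

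Values were divided by the library total (ppm) and transformed as log2(ppm + 1), which understates fold changes of low genes. A minimum mean of 1 ppm removed 0 genes. The authors' table was already limited to genes labelled as expressed. In it the larger of the 2 group means of a gene was never below 700 in the deposited unit, where library totals were 261.1 to 261.3 in 1000000 of that unit. Shares over all genes and counts on lists are therefore those of a filtered table. Groups were compared by limma 3.58.1 (R 4.3.3, intensity trend, two-sided), with Benjamini-Hochberg adjustment over 12072 genes and a threshold of 0.05. Shares and ratios were compared by exact permutation tests. Levels between genes were divided by the longest coding transcript in GENCODE M21, which matched 99.5% of genes. The limma step was tested on simulated data. The members and gene lists, and the choice of libraries left out, were chosen with earlier results of these data known. Outside the members, text names the 3 genes of each list with the smallest p, the proliferation markers analysed and, where said, others seen to move. It also names the 3 genes nearest in profile to a member that spans at least 1 on the log2 scale (mean of at least 10 ppm, predicted genes left out). Figures were drawn with matplotlib 3.10.9.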

Additional observations from a re-analysis of the deposited data

How the results depend on the processing

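With all 6 libraries 0 genes were higher and 0 lower. With array weights 321 were higher and 222 lower, and with both replicates 3 left out 874 and 640; with 1 library left out these counts were 0 to 786 and 0 to 531. Members past the threshold numbered 1 with both replicates 3 left out and 0 in every other setting run. Listed pathway genes past the threshold numbered 17 with array weights, 37 with both replicates 3 left out and 0 to 33 with 1 library left out. Members without overlap numbered 1 to 2 with 1 library left out (18.9% to 43.3% of all genes) and 4 with both replicates 3 left out (55.1%); these 4 were Ccnd1, Cdkn1a, Cdkn1c and Ccng1. The Mpc2 difference was -1.30 with both left out, but 1 of them was set apart by its Mpc2 level, so this value is a description and supports nothing. Counts without fl/fl replicate 3 are likewise a description, since its profile over all genes set that library apart. Signs turned for Ccnd2 with upper quartile (-0.016), median-of-ratios (-0.014) and TMM scaling (-0.011), and for Cdk4 with array weights (0.0076). With 1 library left out, Ccnd2 ranged from -0.060 to 0.086, Cdk4 from -0.12 to 0.18, Cdkn1b from -0.17 to 0.11 and Ccng1 from -0.26 to 0.10. In the same fits the log2 ratio of inhibitors to cyclins ranged from -0.19 to 0.27, the Cdkn1b share difference from -5.06 to 3.50 percentage points, and the Ccnd2 share difference from -2.59 to 0.393. The causes were not tested. Ccnd1, Ccnd3, Cdkn1a, Cdkn1c, Rb1 and Trp53 kept their direction under all 19 alternatives. Several of these could not turn a sign, since they leave the estimate unchanged. They are no intensity trend, robust estimation, no filter, a higher mean filter and the replicate block. The replicate numbers did not pair the samples (correlation of deviations from the group means 0.075, -0.038 and -0.073 for numbers 1, 2 and 3). With the replicate block 0 genes passed, and the Cdkn1a difference was 0.52 (limma adjusted p = 0.548). Each member had at least 1255 coverage steps per library, but these behave as aligned bases and the number of reads is not known. The intervals given rest on the spread between 3 pools per group.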
